A study of Mus musculus with 16 samples.

Results

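The genes described here are 10 enteroendocrine hormone and granule genes, Gip, Cck, Tac1, Sst, Gcg, Chga, Chgb, Tph1, Neurod1 and Pcsk1n, out of 24421 genes listed for single cells of mouse intestinal crypts. They were chosen from their measured UMI counts in these same cells, so their concentration in few cells and their genotype ratios are given as descriptions, with no test. Crypts were taken at postnatal day 16 from untreated outbred mice. The WT mice were wild-type, and the ROBO mice (labelled ROBO-Crainbow) carry a Crainbow transgene with human RSPO3 and 2 PTPRK:RSPO3 fusions, each paired with a fluorescent protein. Per the study's methods, Villin-Cre recombines the transgene in developing intestinal epithelium, so that each recombined cell lineage expresses 1 of the 3 forms, and the cells of all forms stand together in the ROBO matrix. The labels list 8 samples per genotype isolated on 2 cartridges, but a cell's name tells its genotype and no sample. Each genotype is therefore 1 pooled sample, and nothing below was tested between genotypes. The WT matrix holds 1348 cells with 2682127 UMIs (unique molecular identifiers, 1 per captured RNA molecule), a median of 1492 per cell, and the ROBO matrix holds 1249 cells with 2428435 UMIs and a median of 1610.

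Enteroendocrine cells are the hormone-secreting cells of the gut epithelium, scattered singly among absorptive cells, and they arise in the crypt after transient expression of the transcription factor Neurog3. Each cell packs peptide hormones and amines into dense-core granules built with chromogranins, where prohormone convertases cut the precursors. Gip, Cck, Tac1, Sst and Gcg encode the precursors of glucose-dependent insulinotropic polypeptide, cholecystokinin, substance P, somatostatin and the glucagon-like peptides. Chga and Chgb encode chromogranins A and B, Tph1 the rate-limiting enzyme of serotonin synthesis outside the brain, Pcsk1n an inhibitor of the convertase PCSK1, and Neurod1 a transcription factor that follows Neurog3.

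Of 13 clusters, 1 carried the enteroendocrine markers, with 13 of 18 listed markers raised in it. It held 29 cells, 15 WT and 14 ROBO. These are 1.11% of WT cells (95% Clopper-Pearson interval 0.624 to 1.83) and 1.12% of ROBO cells (0.614 to 1.87). The members are themselves among the genes that lead the cluster, so a panel of 29 other enteroendocrine genes that holds no member was counted. Cpe, Scg2, Scg3, Neurog3, Isl1 and Pax6 are in both the panel and the 18 markers. The panel genes Cpe, Nkx2-2 and Vwa5b2 also lead the cluster. The panel counts therefore describe the cluster and are no independent check of its label. In the cluster 24 of 29 cells held UMIs of 3 or more panel genes, with a median of 7 and a highest value of 15, and 1 cell held none. Outside it, 3 of 2568 cells held 3 or more. All intervals here cover counting error only.

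Markers of goblet and Paneth cells, enterocytes, immune cells and fibroblasts were low in the 29 cells. Markers of stem, dividing and tuft cells were not summed in this way. The 19 goblet and Paneth markers summed to 0 to 12 UMIs in a cell and 20.9 UMIs per 10000 over the cluster, against 1075 per 10000 in goblet or Paneth cells. The 33 enterocyte markers summed to 1 to 66 UMIs in a cell and 67.1 per 10000, against 702 in enterocytes. The 19 immune markers gave 1 UMI in all, and the 12 fibroblast markers 16 UMIs in 7 cells.

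The 10 genes together had 3274 UMIs, of which 2873 (87.8%) lay in the 29 enteroendocrine-like cells, although those cells hold 0.878% of all UMIs. All 10 members had over 50% of their UMIs there, as did 0.649% of the 12643 genes with at least 5 UMIs; since the members drive this cluster, nothing is read from that count. A cell is said to make a gene product below when it holds at least 10 UMIs of the gene. By that rule 11 cells made at least 1 of the 5 peptide hormones, 4 of them WT and 7 ROBO, and 10 of the 11 lay in the cluster. Of these cells 9 made 1 hormone and 2 made 2, and both of the latter were ROBO cells. At 3 UMIs in place of 10, 4 cells made 2 hormones and the added ones were WT cells, WT_88 with 178 Gip and 3 Cck UMIs and WT_336 with 12 Tac1 and 3 Cck UMIs. The other 19 enteroendocrine-like cells made none of the 5, and 1 WT cell among them held no UMI of any member.

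**Figure D1:**
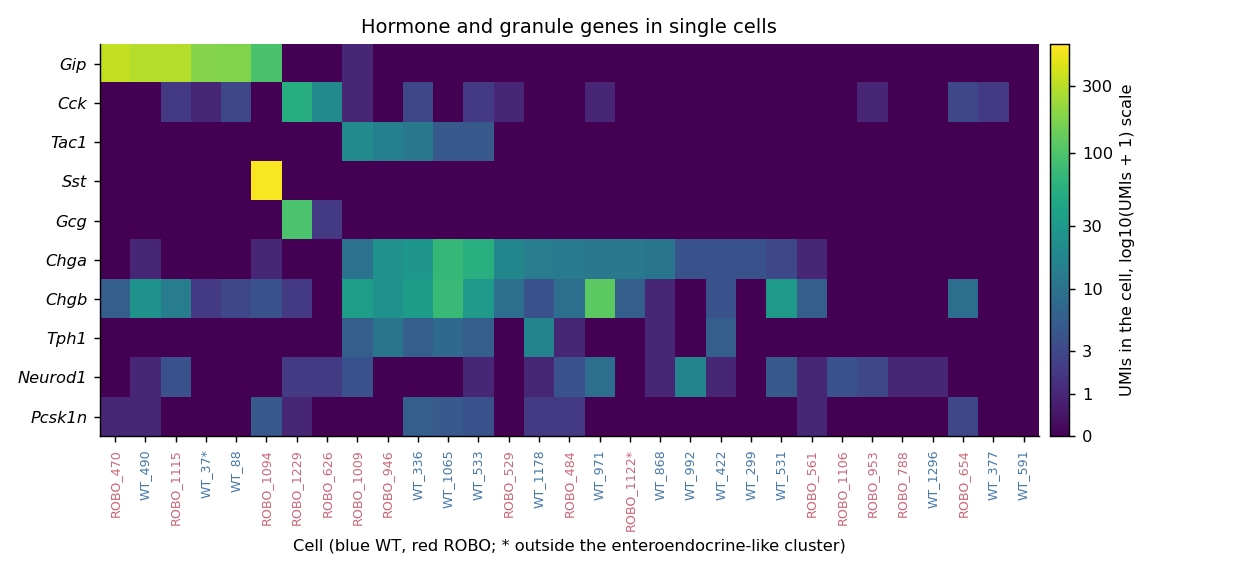
Columns are the 29 enteroendocrine-like cells and 2 cells outside the cluster with at least 10 UMIs of a member (asterisks), rows are the 10 genes, and colour gives UMIs per cell on a log10(UMIs + 1) scale. The 6 cells with at least 10 Gip UMIs are dark in Chga, Tac1 and Tph1, whereas the 5 cells with at least 5 Tac1 UMIs are bright in Chga, Chgb and Tph1.

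The cells fell into sets of genes held together, and the promoters of genes from 3 such sets are shown because each set names hormones or granule genes found in 1 cell. Gip and Sst shared a ROBO cell, Gcg and Cck shared another, and Tac1 and Chga shared 5 cells. Each line gives the 250 bases before the RefSeq start in GRCm38.p6, 5′ to 3′ on the strand of the gene. Capitals mark a full cyclic AMP response element (TGACGTCA) or a NEUROD1-type E-box (CAGATG, or CATCTG for the other strand).
Gip promoter, chr11:96024295-96024544, plus strand: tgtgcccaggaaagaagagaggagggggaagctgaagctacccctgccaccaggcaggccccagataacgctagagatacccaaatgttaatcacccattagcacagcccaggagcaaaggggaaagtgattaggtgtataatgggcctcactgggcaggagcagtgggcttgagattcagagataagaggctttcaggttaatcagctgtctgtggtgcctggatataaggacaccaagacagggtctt
Sst promoter, chr16:23890845-23891094, minus strand: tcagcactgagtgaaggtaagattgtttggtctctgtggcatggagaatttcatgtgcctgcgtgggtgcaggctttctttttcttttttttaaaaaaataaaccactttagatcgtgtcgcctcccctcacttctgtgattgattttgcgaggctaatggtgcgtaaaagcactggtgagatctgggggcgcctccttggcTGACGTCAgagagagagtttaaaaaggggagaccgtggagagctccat
Gcg promoter, chr2:62483654-62483903, minus strand: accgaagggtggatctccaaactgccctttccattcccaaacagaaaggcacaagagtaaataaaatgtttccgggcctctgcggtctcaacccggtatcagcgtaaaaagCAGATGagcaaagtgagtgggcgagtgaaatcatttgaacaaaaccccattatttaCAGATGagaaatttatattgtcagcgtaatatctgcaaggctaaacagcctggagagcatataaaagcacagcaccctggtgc
Cck promoter, chr9:121495695-121495944, minus strand: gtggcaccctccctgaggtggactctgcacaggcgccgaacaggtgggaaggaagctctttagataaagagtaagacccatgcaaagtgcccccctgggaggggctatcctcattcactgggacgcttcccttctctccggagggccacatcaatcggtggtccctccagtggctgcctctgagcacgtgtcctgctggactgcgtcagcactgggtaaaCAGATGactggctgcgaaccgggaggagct
Tac1 promoter, chr6:7554811-7555060, plus strand: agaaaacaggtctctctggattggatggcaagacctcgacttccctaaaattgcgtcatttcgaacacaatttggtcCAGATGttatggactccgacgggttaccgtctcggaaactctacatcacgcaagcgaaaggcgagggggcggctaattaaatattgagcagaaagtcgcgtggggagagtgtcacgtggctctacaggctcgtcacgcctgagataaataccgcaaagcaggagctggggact
Chga promoter, chr12:102554691-102554940, plus strand: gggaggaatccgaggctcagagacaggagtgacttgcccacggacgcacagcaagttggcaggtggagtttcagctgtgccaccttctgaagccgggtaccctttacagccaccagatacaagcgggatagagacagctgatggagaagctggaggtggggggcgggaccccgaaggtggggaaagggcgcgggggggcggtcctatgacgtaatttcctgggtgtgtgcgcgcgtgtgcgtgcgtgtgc

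The full response element was found in 2 of the 10 members, Sst at 48 bases and Chgb at 72 bases before the start, and in 1.62% of the 27018 promoter windows of the same length. Its TGACG half-site, searched on both strands and contained in the full element, was found in Cck, Tac1, Sst, Chga, Chgb and Tph1 and in 17.9% of windows. The E-box was found in Cck at 30 bases, Tac1 at 173 bases and Gcg at 139 and 83 bases before the start, and in 14.5% of windows. Of the genes that shared cells, Gcg and Cck both hold the E-box, whereas Gip and Sst hold no marked motif in common, nor do Tac1 and Chga. A match describes letters in the window and not a bound site.

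Gip had 1410 UMIs and 6 producing cells, which held 97.1% of them. The 3 WT cells held 295 (WT_490), 178 (WT_88) and 180 UMIs (WT_37). The 3 ROBO cells held 330 (ROBO_470), 292 (ROBO_1115) and 94 UMIs (ROBO_1094). The WT and ROBO values overlap, and no other cell of either genotype exceeded 4 UMIs, so the gap between producing and other cells was wide. Gip alone was 32.6% of all UMIs in ROBO_470, 17.3% in WT_490, 16.1% in ROBO_1115, 8.66% in WT_88, 5.35% in WT_37 and 4.17% in ROBO_1094.

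Chga was at 0 or 1 UMI in the Gip cells, whereas Chgb and Cpe were present in all 6. Chga was at 1 UMI in 2 of the 6 and at 0 in the other 4. Its median was 0 in the 6 and 1 over the 29 enteroendocrine-like cells, of which 12 held none. Chgb had 2 to 25 UMIs in the 6 and a median of 5, against a median of 4 over the 29. None of the 6 held a UMI of Tac1 or Tph1. Cpe, the carboxypeptidase that trims hormone precursors, was present in all 6 with 2 to 8 UMIs. Rfx6, a transcription factor of the lineage, was present in 5 of 6. Sct, the secretin precursor, had 24 UMIs in WT_88, 9 in ROBO_1115 and at most 1 in the others.

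WT_37 was a Gip cell by its counts but fell in a stem or dividing cluster. It had 3367 UMIs in all, the most of the 6 Gip cells, and UMIs of 10 panel genes, among them Cpe, Scg2, Scg3, Scg5, Insm1 and Rfx6. Its 180 UMIs are most of the 202 Gip UMIs outside the cluster in WT. Whether it is 1 cell or several in a droplet was not tested.

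Sst, which encodes somatostatin, an inhibitor of other endocrine cells, was made by 1 cell of 2597. ROBO_1094 held 565 Sst UMIs, 25.1% of its 2255 UMIs, and 97.8% of the 578 Sst UMIs in both matrices. The same cell held 94 Gip UMIs and 28 UMIs of Iapp, the amylin precursor, which were the only Iapp UMIs in either matrix. It also held 4 UMIs of Hhex, a transcription factor known from somatostatin cells, and 3 of Isl1. Neither was particular to it. WT_490, a Gip cell without Sst, held 2 UMIs of Hhex, and Isl1 was highest in WT_992, at 16. Apart from ROBO_1094, no enteroendocrine-like cell held a single Sst UMI, and no cell of either matrix exceeded 2. The total of ROBO_1094 stood above the median of 1342 UMIs of the 14 ROBO enteroendocrine-like cells and below the highest, 2496. Whether it is 1 cell or several in a droplet was not tested.

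Gcg was also made by 1 cell. ROBO_1229 held 96 Gcg UMIs, 5.04% of its 1904 UMIs, together with 53 of Cck, 15 of Pyy, which encodes peptide YY, and 3 of Sct. It held 88.9% of the 108 Gcg UMIs. Whether ROBO_1229 is 1 cell or several in a droplet was not tested either. ROBO_204, outside the cluster, held 4 Gcg UMIs beside 2 of Cck, and ROBO_626 held 2 beside 20 of Cck. The 2 cells that made Cck were thus the only 2 enteroendocrine-like cells with any Gcg. No WT enteroendocrine-like cell held Gcg.

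Within the cluster Cck was the hormone found in the most cells. Of 29 enteroendocrine-like cells 12 held a UMI of it, 5 WT and 7 ROBO, but only the 2 ROBO cells above made it, with 53 and 20 UMIs. The other 10 held 1 to 3 UMIs each. The highest WT value, 6 UMIs, was in a cell outside the cluster. Low Cck appeared beside other hormones as well, in 2 of the 5 Gip cells of the cluster and in 3 of the 5 Tac1 cells, with at most 3 UMIs.

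Tac1 was held by 5 enteroendocrine-like cells and by no cell above 1 UMI outside them. The WT cells held 12 (WT_336), 5 (WT_533) and 5 UMIs (WT_1065), and the ROBO cells 20 (ROBO_1009) and 15 (ROBO_946). All 5 held 6 or more UMIs of Tph1, 10 or more of Chga and 25 or more of Chgb. Chga ranged from 10 to 69 UMIs with a median of 28, and Chgb from 25 to 76 with a median of 33. Of 62 Tph1 UMIs in the cluster 37 were in these 5 cells. Gip was at 1 UMI in 1 of them and at 0 in the rest, and Sst and Gcg were at 0 in all 5.

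Genes of the serotonin pathway were counted in the same cells. Ddc, the decarboxylase that completes serotonin synthesis, was present in 4 of the 5 Tac1 cells, Fev, a serotonin-cell transcription factor, in 4, and Lmx1a, another, in 3. Slc18a1 was present in 3 of the 5 Tac1 cells, and Slc18a2, Gch1 and Maob in 2 each. Ddc also had UMIs in 213 cells outside the cluster. Over the 29 cells Lmx1a had 14 UMIs in 6 cells and Fev 19 UMIs in 8 cells, with none elsewhere. Of the Fev UMIs 13 were in 3 cells with Neurog3, and 5 were in the Tac1 cells. Slc6a4, the serotonin transporter, had 289 UMIs in 230 other cells and none in the cluster, where a count of 0 of 29 cells allows up to 10.3% of cells with a captured UMI. Of the 8 serotonin genes listed, 2 had over 50% of their UMIs in the cluster. WT_1065 was the one cell of the cluster with Ucn3, the urocortin 3 precursor, at 7 UMIs, and it also held 8 UMIs of Trpa1, an irritant-gated channel of serotonin cells.

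Tph1 without Tac1 was found in 4 enteroendocrine-like cells, WT_1178 with 17 UMIs, WT_422 with 6, and WT_868 and ROBO_484 with 1 each. All 4 held Chga, at 14, 4, 11 and 13 UMIs. Thus all 9 enteroendocrine-like cells with Tph1 held both Chga and Chgb. Of its 3233 UMIs, WT_422 had 66 of the enterocyte markers, the most in the cluster. Whether WT_422 is 1 cell or several in a droplet was not tested.

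Chga and Chgb overlapped but did not mark the same cells. Chga was present in 17 and Chgb in 20 of the 29 cells, and 15 held both. Over all 2597 cells, in the cluster and outside it, 11 cells made Chga at 10 or more UMIs and 9 made Chgb, of which 6 made both. Over the same 2597 cells, 17 held Chga and 21 held Chgb at 3 or more UMIs, and at 20 or more 4 and 8 did. Of the 5 enteroendocrine-like cells with Chgb and no Chga, 4 were Gip or Gcg cells. The highest Chgb value, 118 UMIs, was in WT_971, a cell with Neurog3 that made no hormone. ROBO_1122, a cell of 1755 UMIs outside the cluster, held 12 Chga and 6 Chgb UMIs with 3 panel genes.

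Neurod1 was the transcription factor member and was present in 18 of the 29 cells, mostly at 1 to 5 UMIs. The highest values were 17 in WT_992 and 9 in WT_971, both WT. Neurog3 was present in 9 enteroendocrine-like cells with 1 to 8 UMIs. None of these 9 made any of the 5 hormones, and 10 of the 20 cells without a Neurog3 UMI did. Neurod1 was present in 7 of the 9 and held 36 of its 62 cluster UMIs there, against 11 of the 20. A chromogranin was made by 1 of the 9 and by 12 of the 20. The 9 cells had a median of 1535 UMIs, against 1214 in the 20, and the part of depth in these counts was not tested.

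WT_992, the cell with most Neurod1, had 16 UMIs of Isl1 and 7 of Nkx2-2, both transcription factors of endocrine cells, and 7 of Scgn, a calcium-binding protein of endocrine cells. It held 4 Chga UMIs and none of the 5 hormones. WT_971 had 11 UMIs of Insm1 and 8 of Fev.

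Pcsk1n had the fewest UMIs of the members, 34 in 14 cells and at most 6 in a cell. In the cluster 11 cells held it, and all 11 also held Chgb. Its partner Pcsk1 had 6 UMIs in 5 enteroendocrine-like cells.

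**Figure D2:**
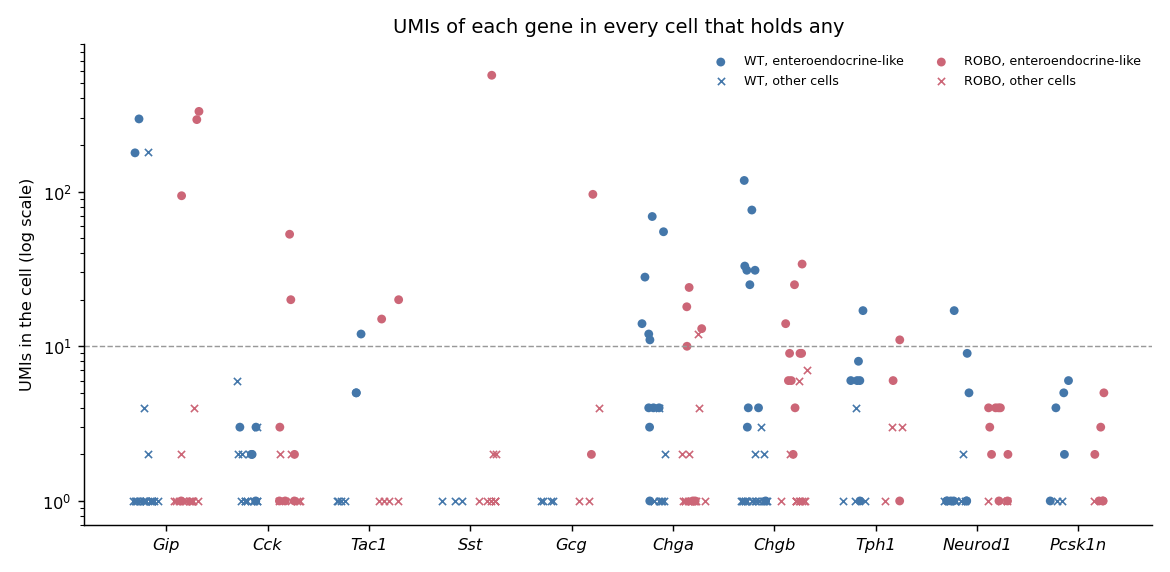
Each point is 1 cell with at least 1 UMI of the gene on the x axis, the y axis gives its UMIs on a log scale, circles are enteroendocrine-like cells, crosses other cells, and the dashed line marks 10 UMIs. Gip, Sst and Gcg show a wide gap between producing cells and cells with 1 to 4 UMIs, while Tac1, Neurod1 and Pcsk1n show no such gap.

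Beyond the members, lists of known genes of the pathway were counted in the same 29 cells. Of 17 other hormone genes 11 had any UMI, 5 had one in the cluster and 3, Pyy, Iapp and Ucn3, had over 50% there. As given above, 0.649% of genes with at least 5 UMIs did; of the lists, 6 hormone, 12 granule and processing and 15 transcription factor genes reach that number of UMIs, and 3, 7 and 10 of them had over 50% in the cluster. Sct had 254 UMIs, with 69 in 11 enteroendocrine-like cells and the rest in 133 other cells, so most of its signal lay elsewhere. Of 16 granule and processing genes 14 had a UMI in the cluster, led by Cpe with 45 of 57 UMIs in 12 cells. Of 17 transcription factors 15 had a UMI there, among them Nkx2-2 with 36 of 41 UMIs in 14 cells, Insm1 with 30 of 45 in 13 cells, Rfx6 with 22 of 28 in 10 cells and Pax4 with 13 of 14 in 9 cells. The median gene of that list, taken over all 17 at any number of UMIs, had 66.7% of its UMIs in the cluster. Over all genes with at least 5 UMIs the median was 0.581%. Neurog3, Isl1 and Pax6 of the list are among the markers that named the cluster, so both medians are given as description.

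The 5 genes outside the members with the pattern most like their summed level over the 2597 cells, among genes with at least 50 UMIs, were Cpe (Pearson r of log2(UMIs per 10000 + 1) 0.53), Vwa5b2 (0.41), Hepacam2 (0.29), Aplp1 (0.29) and Fabp5 (0.27). The values describe sparse counts of cells that share 2 matrices. Cpe and Vwa5b2 alone remained among the 5 when genes with at least 20 UMIs were admitted, where Nkx2-2, Rbp4 and Fxyd6 joined them.

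Each member also had UMIs in cells outside the cluster, called stray where under 10 in a cell. Some of these cells held several members. ROBO_707 held 7 UMIs of Chgb, 4 of Chga, 1 of Tac1 and 1 of Neurod1. WT_107 held 6 of Cck, 1 of Gcg and 1 of Pcsk1n, and ROBO_204 held 4 of Gcg, 2 of Cck and 1 of Pcsk1n. Of 8 outside cells with Tac1, 4 also held Chga, against 23 of all 2568. Whether such cells are endocrine cells or mixed droplets was not tested. Outside the cluster 12.2% of the members' UMIs were found (95% Clopper-Pearson interval 11.1 to 13.4), 401 in number, of which 180 were the Gip UMIs of WT_37. When outside cells with at least 10 UMIs of the member itself were not counted as outside, the share was 6.38% (5.57 to 7.28). Their UMIs stayed in the base, here and in the shares by gene. By gene that stray share was 2.84% for Gip and 2.25% for Sst, and 9.84% for Chga and 9.39% for Chgb. It was 8.82% for Pcsk1n, 9.26% for Gcg, 12.3% for Tac1, 16.2% for Neurod1, 18.4% for Tph1 and 25.8% for Cck. These pooled shares hide differences in share between the matrices. Each share has the gene's own UMIs in that matrix as its base. Cck was at 67.7% in WT, which has no cell with 10 or more Cck UMIs, and at 10% in ROBO. Chga was at 5.53% and 19.4%, and Chgb at 6.32% and 16.9%. For Gip the share was 3.26% in WT and 2.45% in ROBO. Per 1000000 UMIs of the other cells, stray Chgb was at 8.28 (5.19 to 12.5) in WT and 9.96 (6.38 to 14.8) in ROBO. Chga was at 4.52 (2.33 to 7.89) and 7.89 (4.75 to 12.3), and Cck at 8.66 (5.49 to 12.99) and 3.74 (1.71 to 7.09). The exact Poisson intervals of WT and ROBO overlap for each of these genes. Of the 24 stray Chgb UMIs in ROBO, 7 were in ROBO_707 and 6 in ROBO_1122.

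Sst and Gcg had no producing WT cell, and their counts outside the cluster are given for both genotypes. The Gcg counts include WT_107 and ROBO_204, which also held Cck, so they are not a clean background level. Sst had 3 UMIs in 3 of 1333 other WT cells and 10 UMIs in 8 of 1235 other ROBO cells, or 1.13 (exact Poisson interval 0.233 to 3.3) and 4.15 (1.99 to 7.63) per 1000000 UMIs. Gcg had 4 UMIs in WT and 6 in ROBO, or 1.51 (0.41 to 3.85) and 2.49 (0.914 to 5.42) per 1000000. The intervals of the genotypes overlap for both genes. Gip, made in both genotypes, had 8.28 stray UMIs per 1000000 in WT (5.19 to 12.5) and 7.47 in ROBO (4.43 to 11.8).

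By cell type the stray level was similar in the epithelial groups, whose intervals overlap. Counting only values under 10 UMIs per member and cell, stem or dividing cells had 0.458 UMIs of the members per 10000 (0.374 to 0.556), enterocytes 0.344 (0.266 to 0.437), goblet or Paneth cells 0.477 (0.247 to 0.834) and the unnamed cluster 0.303 (0.176 to 0.484). The immune cells had 1.22 (0.611 to 2.19), and 8 of 11 UMIs were Tph1. Their interval overlaps that of goblet or Paneth cells. It lies above those of stem or dividing cells, enterocytes and the unnamed cluster. After thinning each cell to 912 UMIs, 2.36% of other WT cells (23 of 974, 1.5 to 3.52%) and 2.62% of other ROBO cells (25 of 955, 1.7 to 3.84%) held a UMI of any member, against 5.4% and 4.86% before thinning, and all 19 deep enough enteroendocrine-like cells did. Median depths were 1494 and 1614 UMIs in the other WT and ROBO cells.

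The Tph1 signal in immune cells was followed after its values were seen. Of 3 immune cells with Tph1, WT_845 held 4 Tph1 UMIs with 76 UMIs of the mast-cell proteases Cpa3, Mcpt1 and Mcpt2, and ROBO_1043 held 3 with 823. The third, ROBO_1209, held 1 Tph1 UMI and none of the proteases. Mast cells are known to make serotonin with this enzyme. Another cell with 38 protease UMIs, WT_387, held no Tph1. None of the 3 Tph1-positive cells held Chga or Chgb, in contrast to the 9 enteroendocrine-like cells with Tph1.

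**Figure D3:**
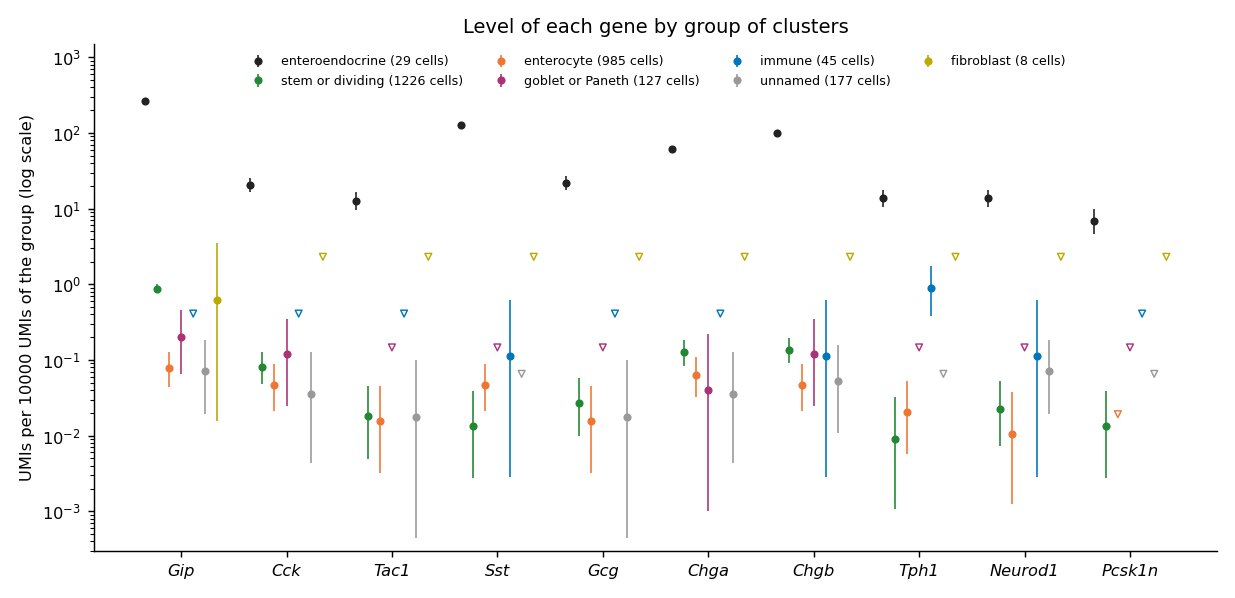
The y axis gives the UMIs of each gene per 10000 UMIs of a group of clusters on a log scale, with exact Poisson 95% bars, and open triangles mark the upper limit where no UMI was found. Enteroendocrine-like cells stand at 6.91 to 265 for the 10 genes, and of the other groups only immune cells for Tph1 (0.89), stem or dividing cells for Gip (0.876, with WT_37) and fibroblasts for Gip (0.626, 1 UMI) exceed 0.5.

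Between genotypes, the number of enteroendocrine-like cells was nearly equal, and the sums of single genes followed few cells. Per total UMIs, Sst was at 575 UMIs in ROBO and 3 in WT, a log2 ratio of 7.73 (conditional exact interval 6.17 to 10.01), Gcg at 104 and 4 (4.84, 3.44 to 6.75) and Cck at 90 and 34 (1.55, 0.964 to 2.16). These 3 of 10 members were at least 2-fold higher in ROBO, as were 0.859% of the 10012 genes with at least 30 UMIs. Chga at 98 in ROBO and 217 in WT (−1.003, −1.363 to −0.653) and Chgb at 142 and 348 (−1.15, −1.44 to −0.86) were at least 2-fold lower, as were 0.829% of genes. The members were chosen with these ratios known, so nothing is read from the counts. Gip was at 735 in ROBO and 675 in WT (0.27), Tac1 at 39 and 26 (0.73), Tph1 at 25 and 51 (−0.89), Neurod1 at 28 and 46 (−0.57) and Pcsk1n at 14 and 20 (−0.37).

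Single cells set several of these ratios. Without the 1 richest cell of each genotype, Sst fell to 10 UMIs in ROBO and 2 in WT (2.47), Gcg to 8 and 3 (1.56) and Cck to 37 and 28 (0.55). In the enteroendocrine-like cells alone, ratios were scaled to the cluster totals of 19596 UMIs in ROBO and 25265 in WT. There Gip was at 717 UMIs in ROBO and 473 in WT (0.97), without the 180 of WT_37, which lies outside the cluster. Cck was at 81 and 11 (3.25) and Tac1 at 35 and 22 (1.04). Chga was at 67 and 205 (−1.25) and Chgb at 118 and 326 (−1.1). Tph1 was at 18 and 44 (−0.92), Neurod1 at 25 and 37 (−0.2) and Pcsk1n at 13 and 18 (−0.1). Over all cells without the richest of each genotype, Chga and Chgb changed less than Sst, Gcg and Cck, to −0.86 and −0.95. Within the cluster Chga exceeded 24 UMIs in 3 WT cells, at 69, 55 and 28, and in no ROBO cell, and Chgb exceeded 34 in 2 WT cells, at 118 and 76. The ranges overlap below those values. With 15 and 14 cells of unknown animals, cells cannot stand for replicates.

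**Figure D4:**
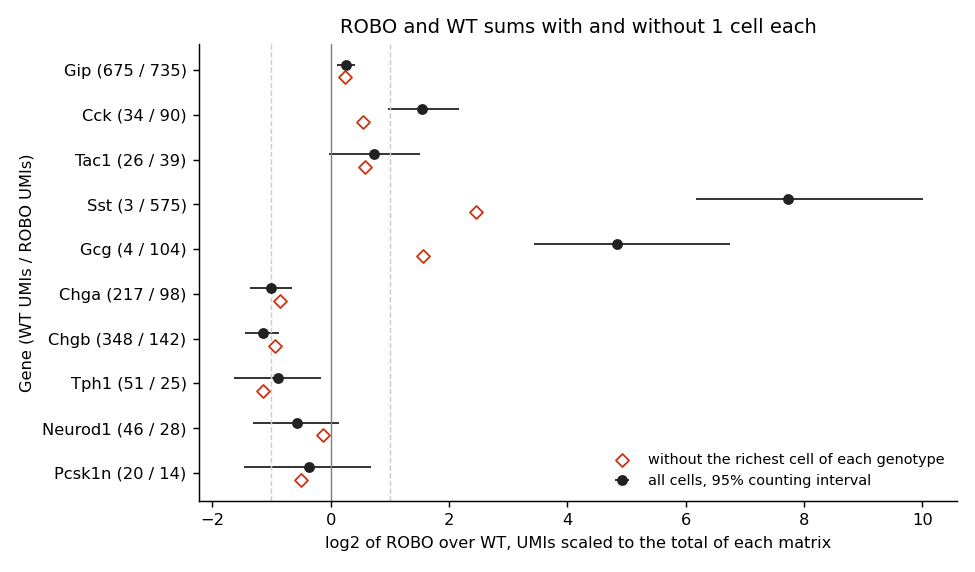
The x axis gives log2 of ROBO over WT for UMIs scaled to the total of each matrix, for all cells with 95% conditional exact intervals (filled circles) and without the richest cell of each genotype (open diamonds); dashed lines mark 2-fold. Sst moves from 7.73 to 2.47 and Gcg from 4.84 to 1.56 when 1 cell is left out of each genotype.

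How far few cells can hold a gene was read over all genes. In WT 4 of the 4 members with at least 50 UMIs had 50% or more of them in 5 cells, as did 0.806% of the 7572 genes tested, and in ROBO 6 of 6 did, as did 0.614% of 7331 genes. The share in the 5 richest cells was 97.6% for Gip, 82.0% for Chga, 83.1% for Chgb and 84.3% for Tph1 in WT. In ROBO it was 99.3% for Sst, 100% for Gcg, 98.2% for Gip, 88.9% for Cck, 78.6% for Chga and 64.1% for Chgb. The median gene had 9.65% in WT and 9.80% in ROBO. The members were chosen for this pattern, and Sst, Gcg and Cck reach 50 UMIs only in ROBO and only through 1 or 2 rich cells, so nothing is read from these counts.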

How the data were processed

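Per the labels, crypt cells were isolated on a Bio-Rad ddSEQ with the SureCell WTA 3′ kit. Raw UMI counts per gene and cell were made by the authors with BaseSpace Sequence Hub and deposited as 1 matrix per genotype; the submitters' processing notes name mm10 and GRCm38, and the aligner, annotation and cell-calling rule are not given in the sources used here. All values were whole numbers. Cells were clustered with Seurat 5.3.0 in R 4.3.3 (20 principal components of 2000 variable genes, resolution 0.8, S and G2M scores regressed out; the study names version 2), so cluster names are rebuilt from marker lists: 3 or more markers raised at least 1.5-fold in at least 10% of cells. No doublet caller was run, and cell names hold no barcode to compare between matrices; no 2 cells had identical counts. UMIs are counted at the 3′ end and were not scaled to gene length. Exact Clopper-Pearson, Poisson and conditional intervals (95%) were computed with scipy 1.17.1, and a count of 0 was given the limit of 3 counts. Cells were thinned to 912 UMIs, which left out 649 cells. Functions were tested on simulated data. Named genes are the 10 members, list genes detected in at least 20% of enteroendocrine-like cells or at 10 or more UMIs in 1 cell, and the 5 most similar genes; others were named after their values were seen, and list counts take in every gene. The members and lists were chosen with earlier results of these data known. Symbols with a point for a hyphen (Nkx2-2) were matched. Promoters come from a RefSeq table of GRCm38.p6, in which all 10 members had an entry.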

Additional observations from a re-analysis of the deposited data

How the results depend on the processing

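Of 118 alternative values, 81 stayed within 1.5 times the count or within the counting interval of the value reported, and none changed the sign of a ratio past 2-fold. The number of enteroendocrine-like cells was among these under each clustering and panel rule tried, and with cells of at least 10 UMIs of a member added, an alternative chosen after seeing the data. At 3 UMIs in place of 10, 4 cells made 2 hormones, and the 2 added were WT. The number of cells called producing moved with that minimum for most members, from 2 to 10 for Tph1 and from 9 to 21 for Chgb at 3 UMIs, and from 3 to 1 for Tac1 at 20 UMIs. The share of the members' UMIs outside the cluster was 6.05% without other cells that hold 3 or more panel genes. It was 6.38% without those that hold 10 or more UMIs of the member, WT_37 and ROBO_1122. In both cases the UMIs of the cells left out stayed in the base. Without thinning, 5.4% of other WT cells and 4.86% of other ROBO cells held a UMI. Without the richest cell of each genotype 3 members, Sst, Gcg and Tph1, were past 2-fold in place of 5. Genes held by few cells numbered 61 in WT and 45 in ROBO; with at least 100 UMIs they were 32 and 29, and at 80% of UMIs 21 and 18. Of the 5 most similar genes 2 were shared when genes with 20 UMIs were admitted.

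No paired analysis was possible because the cell names do not give the sample, and for the same reason leaving out each sample could not be done. Medians of 1492 and 1610 UMIs per cell limit what a 0 means in 1 cell, and 29 cells limit every share given.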

Other observations

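Nutrient sensors and receptors for the 5 hormones were sparse. Of 12 nutrient-sensing genes 9 had any UMI and 6 had one in the enteroendocrine-like cells. Ffar2, a short-chain fatty acid receptor, had 6 of its 21 UMIs in 6 of the 29 cells and the rest in 10 others. Slc5a1, the sodium-glucose cotransporter, had 1788 UMIs, of which 5 lay in 4 enteroendocrine-like cells and the rest in 865 others. Of 20 receptor genes 6 had any UMI, and Gip, Cck and Gcg had no receptor gene above 2 UMIs in all cells. Sstr1, a somatostatin receptor, had 7 UMIs, all in 3 enteroendocrine-like cells, WT_992 with 4, ROBO_529 with 2 and ROBO_484 with 1. Htr4, a serotonin receptor, had 31 UMIs in 28 cells, none of them enteroendocrine-like.

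ROBO_654 held 14 UMIs of Sct, 5 of Pyy, 3 of Cck and 2 of Ghrl, the ghrelin precursor, 4 hormones at low level in 1 cell of 748 UMIs.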
